A study of Mus musculus with 6 samples.

Results

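Chemokines are small secreted or membrane-bound proteins that draw leukocytes along a gradient, and their receptors are G protein-coupled receptors on the responding cells. The family is named by the spacing of its first cysteines (CC, CXC, CX3C and XC). Atypical receptors bind their ligands without G protein signalling, and some of them remove chemokines from the tissue. In the gut, epithelial chemokines place lymphocytes and plasma cells along the bowel, with Ccl25 the ligand of the small bowel and Ccl28 a ligand of the large bowel. The genes described here are those whose symbol in the platform annotation is Ccl, Cxcl, Ccr or Cxcr followed by digits alone, together with Cx3cl1, Cx3cr1, Xcl1, Xcr1, Ackr1 to Ackr4 and Ccrl2. This gave 56 genes, each with 1 probe set, of 22206 transcript probe sets. They were 34 ligands, 17 receptors and 5 atypical receptors.

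RNA labelled as coming from colon crypts of C57BL/6J mice was hybridised to 6 single-colour arrays. The 3 MBELN arrays came from mice given exosome-like nanoparticles of mulberry bark by mouth daily for 7 days, and the 3 PBS arrays from mice labelled as controls, with PBS in their titles. The labels give no age or sex, and they do not say whether an array is a single mouse or a pool. The p-values therefore rest on differences among arrays that may be technical repeats. Values are the authors' deposited ones, read as log2, and a gene is called above background in an array where it exceeds the 95th percentile of that array's 1414 probe sets for smell receptors (olfactory and vomeronasal), which was 4.39, 4.10 and 4.44 in MBELN 1, 2 and 3 and 4.19, 4.33 and 3.99 in PBS 1, 2 and 3. This is called the olfactory receptor level below. With 3 arrays a group, precision is limited by their number.

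The markers went against the labelled tissue in several arrays. Gut epithelial genes (15) had medians of 4.46, 3.43 and 4.89 in MBELN 1, 2 and 3, against 16.88, 15.83 and 17.45 in PBS 1, 2 and 3. Heart muscle genes (15) had medians of 18.22 in MBELN 1 and 18.83 in MBELN 3, and neuronal genes (13) had 15.56 in MBELN 2. Among the PBS arrays, Paneth cell genes (10) had medians of 19.06, 3.60 and 19.61 in PBS 1, 2 and 3, and colon epithelial genes (8) had 6.03, 17.27 and 7.34. Each difference between MBELN and PBS below is therefore also a difference between arrays with these marker patterns, and treatment and tissue markers cannot be told apart. In bulk RNA, fewer cells of a type and less RNA per cell cannot be told apart either. Each gene's difference is given with all arrays and, where the text turns on it, without PBS 2 and MBELN 2, which stood apart within their groups. That fit leaves MBELN 1 and MBELN 3 against PBS 1 and PBS 3. Leaving out arrays chosen from the same values narrows the spread within groups, so its smaller p-values are not independent support.

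**Figure D1:**
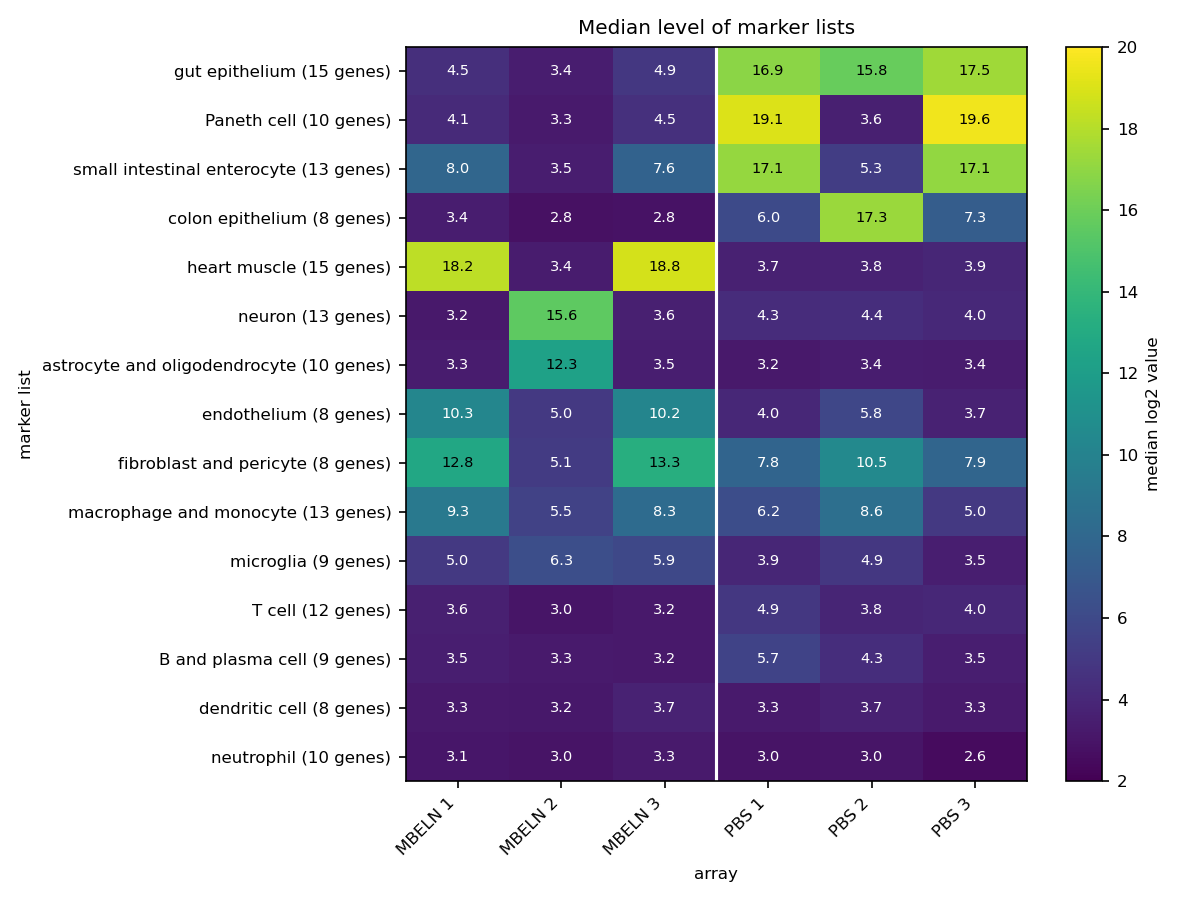
Median log2 value of the genes of each marker list (rows, with the number of measured genes) in each array (columns, MBELN left of PBS). The gut epithelium medians were between 3.43 and 4.89 in the MBELN arrays and between 15.83 and 17.45 in the PBS arrays, while heart muscle markers stood high in MBELN 1 and MBELN 3 and neuronal markers in MBELN 2.

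Few members of the family were far above background. Of the 56 genes, 35 lay above the olfactory receptor level in at least 1 array, 7 in all 6 arrays and 21 in none. The 7 were Ccl11, Ccl25, Cx3cl1, Cxcl12, Cxcl16, Ccr7 and Cxcr3. By array, 22, 14 and 24 genes lay above it in MBELN 1, 2 and 3, and 23, 20 and 18 in PBS 1, 2 and 3. MBELN 2 thus had the fewest, although 55.2% of all probe sets lay above the level in that array, the highest share of the 6. In at least 1 array, 21 genes stood 2 or more log2 units above the level, and these are described one by one. They were 15 of the 34 ligands, 3 of the 17 receptors and 3 of the 5 atypical receptors.

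**Figure D2:**
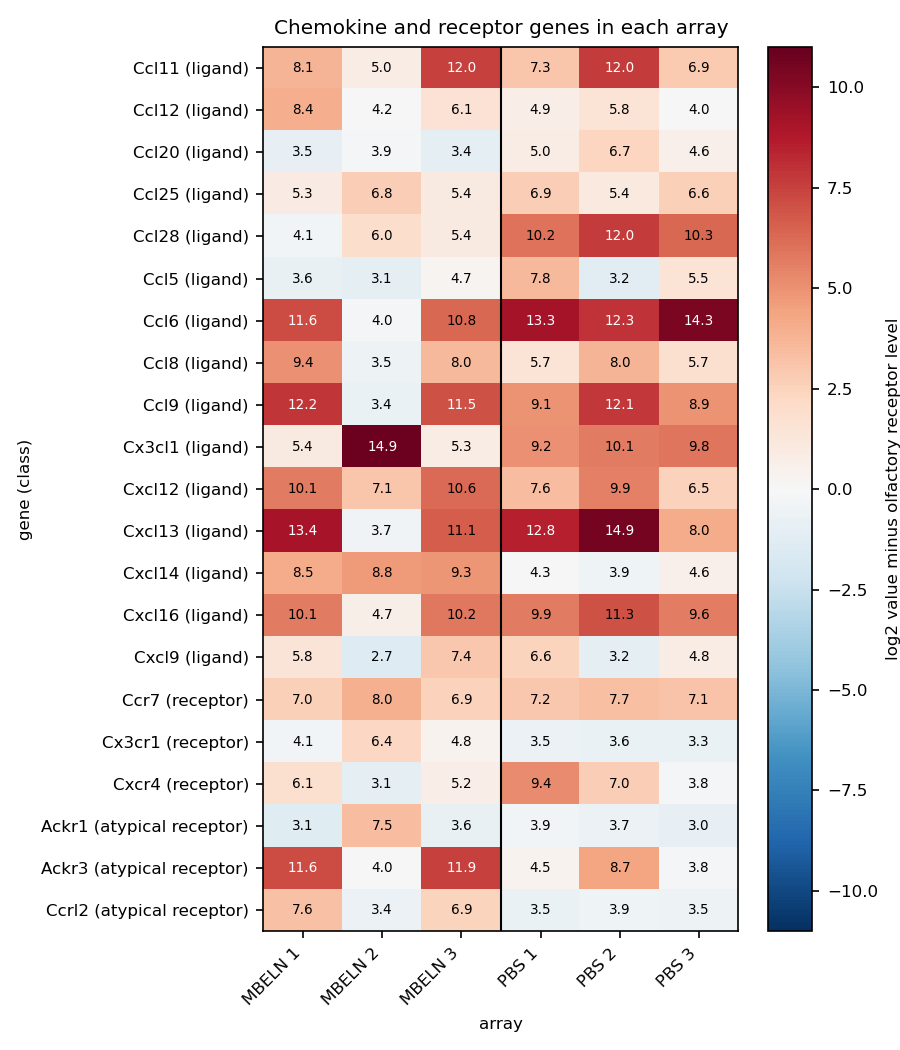
Log2 values of the 21 genes that stood 2 or more log2 units above the olfactory receptor level in at least 1 array (rows, ligands above receptors above atypical receptors; columns, MBELN left of PBS). The printed number is the log2 value and the colour is its distance from the level of that array. Cxcl14 is coloured in the MBELN arrays alone and Ccl28 is darkest in the PBS arrays, while Ccl6, Ccl9, Cxcl13 and Cxcl16 are pale in MBELN 2 alone.

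The comparison of MBELN with PBS asks which transcripts differ between the arrays labelled as crypts of treated and of control mice, whatever tissue they hold. Of the 56 genes, 1 rose (Cxcl14) and 1 fell (Ccl28) at an adjusted p of 0.05 in limma with Benjamini-Hochberg adjustment over all 22206 probe sets. These are shares of 1.79% each, beside 1.42% of all probe sets that were higher and 3.76% that were lower. Each count is a single gene, so the share is near the background for the higher direction and under it for the lower. The MBELN values lay wholly above the PBS values in 3 genes (5.36%, beside 11.9% of all probe sets), namely Cxcl14, Cx3cr1 and Ccl2. They lay wholly below in 6 genes (10.7%, beside 13.4% of all probe sets), namely Ccl28, Ccl6, Ccl20, Cxcr3, Ccr8 and Ccr10. The median difference over the 56 genes was -0.05, beside 0.09 over all probe sets.

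Cxcl14 encodes a conserved CXC chemokine made by epithelial, stromal and other cells, whose receptor is not settled. It read 8.47, 8.80 and 9.32 in MBELN 1, 2 and 3, against 4.25, 3.89 and 4.58 in PBS 1, 2 and 3. All MBELN values were high and close to each other, and all PBS values lay within 0.59 log2 units of the olfactory receptor level, PBS 2 below it. Means were 8.87 ± 0.43 in MBELN and 4.24 ± 0.35 in PBS (SD, n = 3), and the gene rose by 4.63 ± 0.35 (log2, SE; limma, adjusted p = 0.00266). The rise was 4.48 without PBS 2 and MBELN 2 (adjusted p = 0.000185), and it passed the threshold when any 1 array was left out. Heart markers were high in MBELN 1 and MBELN 3 and neuronal markers in MBELN 2, while Cxcl14 was high in all 3. The log2 of the summed heart list was between 11.34 and 22.62 in MBELN and between 8.78 and 11.29 in PBS, with 0 of 15 genes below the olfactory receptor level in all MBELN arrays and 6 in all PBS arrays, among them Myh6, Mybpc3 and Nkx2-5. For the neuronal list the sums were between 10.11 and 21.77 in MBELN and between 8.91 and 9.30 in PBS, with 0 and 4 of 13 genes below the level in all arrays of the group. The arrays of a group were not alike in this. In MBELN 1, 2 and 3, 15, 4 and 15 heart genes lay above the level, against 4, 4 and 7 in PBS 1, 2 and 3. Of the neuronal genes, 4, 13 and 4 did so in MBELN 1, 2 and 3, against 7, 7 and 7 in PBS 1, 2 and 3. The part of the heart and neuronal genes in the rise was not tested.

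Ccl28, a mucosal CC chemokine of epithelial cells that attracts IgA plasma cells through Ccr10, ran the other way. It read 4.09, 6.01 and 5.40 in MBELN 1, 2 and 3, against 10.16, 11.99 and 10.31 in PBS 1, 2 and 3. The groups were far apart, and the value of MBELN 1 lay below the olfactory receptor level. PBS 2, the array with the highest median of colon epithelial genes, was the highest. Means were 5.16 ± 0.98 in MBELN and 10.82 ± 1.02 in PBS (SD, n = 3). Ccl28 fell by 5.66 ± 0.72 (log2, SE; limma, adjusted p = 0.0136), and by 5.49 without PBS 2 and MBELN 2 (adjusted p = 0.000166). The call ended without PBS 1 (adjusted p = 0.0575), without PBS 3 (0.0627) or without MBELN 3 (0.0656), while the difference itself stayed between -6.08 and -5.07 when any 1 array was left out. The gut epithelial list moved with it, with 14 of 15 genes lower at the same threshold, and a log2 summed level between 7.77 and 10.89 in MBELN and between 21.75 and 22.08 in PBS. Cdx2, Cldn7, Phgr1 and Tspan8 of that list lay below the olfactory receptor level in all MBELN arrays. Whether the gut epithelial content accounts for the fall of Ccl28 was not tested.

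The stretches before the start of these genes are shown because Cxcl14 and Ccl28 were the called members, because Cx3cl1 had the largest SD among the MBELN arrays, and because Ccl6 and Ccl9 are neighbours. Each is the 200 bases before the annotated start in RefSeq's GRCm38.p6, on the strand of the gene, and the build of the array is not given in the sources used here. Cxcl14 lies at chr13:56296552-56296751 (minus strand), Ccl28 at chr13:119623619-119623818 (plus), Cx3cl1 at chr8:94771980-94772179 (plus), Ccl6 at chr11:83593088-83593287 (minus) and Ccl9 at chr11:83578637-83578836 (minus). Capitals mark matches to 6 short motifs searched on either strand.
Cxcl14: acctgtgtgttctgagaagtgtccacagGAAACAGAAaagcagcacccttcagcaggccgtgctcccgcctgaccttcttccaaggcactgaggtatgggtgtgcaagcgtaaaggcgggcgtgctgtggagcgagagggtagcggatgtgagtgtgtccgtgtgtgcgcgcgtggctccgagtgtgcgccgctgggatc
Ccl28: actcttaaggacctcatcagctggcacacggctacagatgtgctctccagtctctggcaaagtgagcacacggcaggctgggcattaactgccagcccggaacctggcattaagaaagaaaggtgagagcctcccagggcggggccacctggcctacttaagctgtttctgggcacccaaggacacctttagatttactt
Cx3cl1: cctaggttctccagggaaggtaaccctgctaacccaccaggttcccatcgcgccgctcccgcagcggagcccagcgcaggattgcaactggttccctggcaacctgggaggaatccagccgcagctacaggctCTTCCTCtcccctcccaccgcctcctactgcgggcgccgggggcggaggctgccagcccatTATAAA
Ccl6: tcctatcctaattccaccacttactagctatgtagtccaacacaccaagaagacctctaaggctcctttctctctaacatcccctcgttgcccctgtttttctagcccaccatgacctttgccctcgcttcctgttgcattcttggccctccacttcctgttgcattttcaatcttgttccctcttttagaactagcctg
Ccl9: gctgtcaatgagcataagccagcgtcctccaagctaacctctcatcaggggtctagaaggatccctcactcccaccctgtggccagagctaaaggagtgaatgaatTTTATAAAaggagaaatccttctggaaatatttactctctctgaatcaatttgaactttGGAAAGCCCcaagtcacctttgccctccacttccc

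The motifs were the TATA core TATAAA, a kappa B type GGNNTTTCC, an interferon response type GAAANNGAA, the AP-1 type TGACTCA, a caudal type TTTATNG and a PU.1 type GAGGAAG. Cxcl14 held 1 interferon response type match, 172 bases before the start. Cx3cl1 held TATAAA 6 bases before the start and, on the other strand, the PU.1 type. Ccl9 held TATAAA on each strand in overlapping letters, 92 and 94 bases before the start, and the kappa B type 35 bases before it. Ccl28 and Ccl6 held none of the 6 in this window. The stretch of Cxcl14 was 61.0% G and C with 14 CG dinucleotides and that of Cx3cl1 65.5% with 12, while Ccl6 had 47.5% with 2 and Ccl9 46.5% with 1, beside medians of 53.0% and 5 over 32851 promoters. A promoter was held for 42 of the 56 genes. Of these, 28.6% held TATAAA, beside 9.96% of all promoters, 21.4% the kappa B type, beside 4.05%, and 14.3% the interferon response type, beside 5.57%. The AP-1 type was in 7.14%, beside 3.66%, the caudal type in 9.52%, beside 7.73%, and the PU.1 type in 4.76%, beside 8.84%. A match describes letters and is not a binding site.

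Of the ligands that did not pass the threshold, Cx3cl1 had the largest SD among the MBELN arrays (5.51). It encodes fractalkine, a membrane-bound chemokine of neurons, epithelium and endothelium. It read 5.39, 14.87 and 5.26 in MBELN 1, 2 and 3, against 9.19, 10.06 and 9.84 in PBS 1, 2 and 3. MBELN 2 was thus above and MBELN 1 and MBELN 3 below every PBS array. The mean difference was -1.19 ± 2.69 (log2, SE; limma, adjusted p = 0.856), and without MBELN 2 the gene was lower, by -4.37 (adjusted p = 0.0013). Neuronal genes had a median of 15.56 in MBELN 2, against 3.24 and 3.55 in MBELN 1 and 3 and 4.25, 4.36 and 4.05 in PBS 1, 2 and 3, and their part in its level was not tested.

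The receptor of fractalkine, Cx3cr1, is a marker of microglia and tissue macrophages. It read 4.09, 6.36 and 4.79 in MBELN 1, 2 and 3, against 3.55, 3.64 and 3.28 in PBS 1, 2 and 3. MBELN 2 was again the highest and all PBS values lay below the olfactory receptor level. MBELN 1 lay below its level too. The groups did not overlap, but the difference of 1.59 ± 0.62 (log2, SE) did not pass the threshold (limma, adjusted p = 0.265), and it was 0.95 without MBELN 2 (adjusted p = 0.128). Of 9 microglial genes, 8 lay above the level in MBELN 2, 7 in MBELN 1 and in MBELN 3, and 4, 6 and 3 in PBS 1, 2 and 3, and the log2 summed level was between 10.32 and 11.18 in MBELN and between 7.23 and 9.19 in PBS. Sall1 of that list lay below the level in all 6 arrays and Tmem119 in the PBS arrays.

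Ccl6 and Ccl9, rodent CC chemokines of myeloid cells that bind Ccr1, are adjacent genes. Ccl6 read 11.56, 3.98 and 10.77 in MBELN 1, 2 and 3, against 13.33, 12.26 and 14.33 in PBS 1, 2 and 3. Ccl9 read 12.24, 3.39 and 11.46 in MBELN 1, 2 and 3, against 9.09, 12.13 and 8.92 in PBS 1, 2 and 3. Both lay below the olfactory receptor level in MBELN 2 alone. In the PBS arrays they ran opposite to each other, with PBS 2 lowest for Ccl6 and highest for Ccl9. The differences were -4.53 ± 2.10 for Ccl6 and -1.02 ± 2.55 for Ccl9 (log2, SE; limma, adjusted p = 0.3405 and 0.871). Without PBS 2 and MBELN 2 they had opposite signs, -2.66 for Ccl6 and 2.84 for Ccl9 (adjusted p = 0.00473 and 0.00131). Of the other 3 genes in this run of neighbours, Ccl3 and Ccl4 stayed within 0.83 log2 units of the level or below it. Ccl5, a T cell and monocyte attractant, read 3.60, 3.06 and 4.70 in MBELN 1, 2 and 3, against 7.79, 3.18 and 5.48 in PBS 1, 2 and 3. PBS 1 was the highest, PBS 2 lay below the level, and the groups overlapped, with a difference of -1.70 ± 1.21 (log2, SE; limma, adjusted p = 0.541) that was -0.54 without PBS 1. The annotation overlaps Ccl6 with the non-coding E230016K23Rik, and without stated strand handling their signals cannot be told apart. The same limit holds for Ccl5, Ccl25, Cx3cl1 and Cx3cr1, which overlap other non-coding genes, and for Cxcl16, which overlaps Zmynd15. Zmynd15 itself read 4.65, 3.01 and 4.35 in MBELN 1, 2 and 3, against 3.94, 3.90 and 3.93 in PBS 1, 2 and 3. It exceeded the olfactory receptor level in MBELN 1 alone, whereas Cxcl16 exceeded it in every array.

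The homeostatic B cell attractant Cxcl13, made by stromal cells and macrophages of lymphoid follicles, had the widest spread among the PBS arrays of the 21 genes (SD 3.50). It read 13.44, 3.72 and 11.11 in MBELN 1, 2 and 3, against 12.78, 14.86 and 8.04 in PBS 1, 2 and 3. MBELN 2 was the one array below background, and the remaining values of the groups overlapped. The difference was -2.47 ± 3.0 (log2, SE; limma, adjusted p = 0.713), and 1.87 without PBS 2 and MBELN 2 (adjusted p = 0.424). Cxcr5, its receptor on follicular B and T cells, lay above the level in PBS 1 alone, at 4.26. B and plasma cell genes (9) had medians of 3.52, 3.32 and 3.21 in MBELN 1, 2 and 3, against 5.65, 4.32 and 3.50 in PBS 1, 2 and 3, and 1 of them passed the threshold, lower in MBELN.

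Cxcl16, a transmembrane chemokine of epithelium and macrophages, was even in 5 arrays. It read 10.13, 4.71 and 10.22 in MBELN 1, 2 and 3, against 9.93, 11.32 and 9.63 in PBS 1, 2 and 3. MBELN 2 was low and the other values of the groups overlapped. The difference was -1.94 ± 1.61 (log2, SE; limma, adjusted p = 0.593). Cxcr6, its receptor on T cells and innate lymphocytes, lay below the level in all 6 arrays. Macrophage and monocyte genes (13) had medians of 9.29, 5.53 and 8.32 in MBELN 1, 2 and 3, against 6.23, 8.60 and 4.96 in PBS 1, 2 and 3, with 13, 10 and 13 of 13 above the level in MBELN 1, 2 and 3 and 11, 13 and 11 in PBS 1, 2 and 3. MBELN 2 and PBS 3 had the lowest medians of that list, and Cxcl16 was low in MBELN 2 alone.

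**Figure D3:**
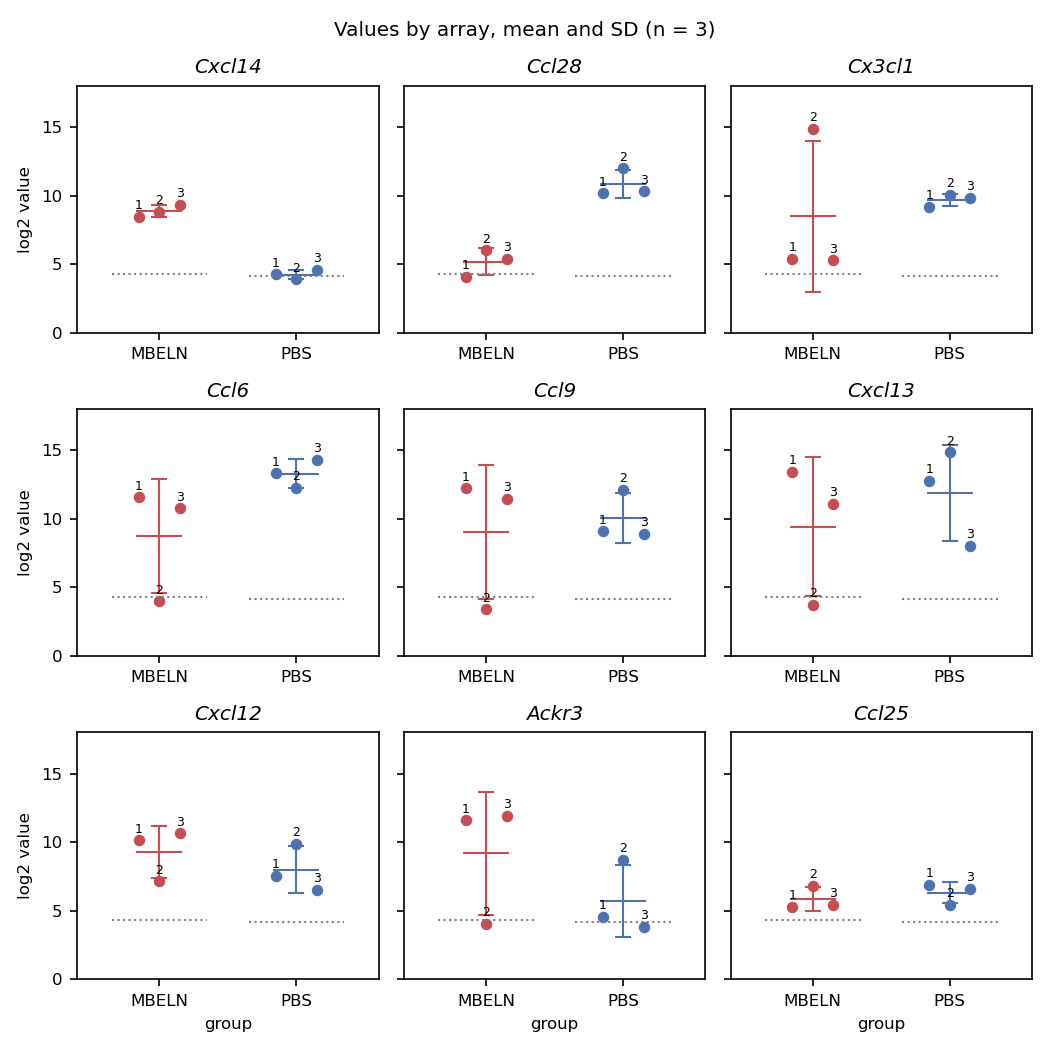
Log2 values of 9 genes in each array (numbered points, MBELN left of PBS), with the mean (long bar) and SD (n = 3 in each group). The dotted lines are the mean olfactory receptor level of the group's arrays. Cxcl14 and Ccl28 separate the groups, and MBELN 2 is far from the other MBELN arrays for Cx3cl1, Ccl6, Ccl9, Cxcl13 and Ackr3. Of the 9 genes, Ccl25 has the smallest range over the 6 arrays (1.62 log2 units).

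A second run of neighbours, Ccl2, Ccl7, Ccl11, Ccl12, Ccl8 and Ccl1, holds monocyte and eosinophil attractants. Ccl11, or eotaxin, the eosinophil attractant that binds Ccr3, read 8.09, 4.96 and 11.95 in MBELN 1, 2 and 3, against 7.26, 11.996 and 6.87 in PBS 1, 2 and 3. Ccl8 read 9.41, 3.54 and 7.995 in MBELN 1, 2 and 3, against 5.71, 8.04 and 5.72 in PBS 1, 2 and 3. Ccl12, a mouse monocyte attractant, read 8.35, 4.19 and 6.07 in MBELN 1, 2 and 3, against 4.90, 5.83 and 3.99 in PBS 1, 2 and 3. In each of the 3 genes PBS 2 was the highest PBS array, and MBELN 2 was the lowest MBELN array. None passed the threshold, with differences of -0.38 ± 2.21 for Ccl11, 0.49 ± 1.64 for Ccl8 and 1.30 ± 1.13 for Ccl12 (log2, SE; limma, adjusted p = 0.951, 0.906 and 0.610). Ccl2 and Ccl7, the monocyte attractants that bind Ccr2, reached 4.69 and 6.10, both in MBELN 1, and Ccl1 lay below the olfactory receptor level in all 6 arrays. Ccl2 exceeded that level in MBELN 1 alone, by 0.30 log2 units. Without PBS 2 and MBELN 2, Ccl2, Ccl7, Ccl8 and Ccl12 passed the threshold, each higher in MBELN, with differences of 2.99 for Ccl8 and 2.77 for Ccl12 (adjusted p = 0.00367 and 0.0286).

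Cxcl12, the homeostatic stromal chemokine that retains progenitors and lymphocytes through Cxcr4, was present in every array. It read 10.12, 7.14 and 10.63 in MBELN 1, 2 and 3, against 7.56, 9.86 and 6.53 in PBS 1, 2 and 3. MBELN 1 and MBELN 3 were the highest and PBS 2 came next. The difference of 1.32 ± 1.26 (log2, SE; limma, adjusted p = 0.638) was 3.33 without PBS 2 and MBELN 2 (adjusted p = 0.00126).

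Ackr3, the atypical receptor that binds and removes Cxcl12, followed the same order with a wider range. It read 11.58, 4.02 and 11.91 in MBELN 1, 2 and 3, against 4.54, 8.71 and 3.83 in PBS 1, 2 and 3. It lay below the olfactory receptor level in MBELN 2 and PBS 3. Its difference of 3.48 ± 2.53 (log2, SE; limma, adjusted p = 0.547) was 6.06 without MBELN 2 (adjusted p = 0.0480) and 7.56 without PBS 2 and MBELN 2 (adjusted p = 1.55e-05).

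Endothelial genes (8) had medians of 10.27, 4.96 and 10.21 in MBELN 1, 2 and 3, against 3.99, 5.85 and 3.75 in PBS 1, 2 and 3, and their log2 summed level was between 8.40 and 15.09 in MBELN and between 7.22 and 9.38 in PBS. Tie1 and Emcn of that list lay below the olfactory receptor level in all PBS arrays. Fibroblast and pericyte genes (8) had medians of 12.80, 5.12 and 13.26 in MBELN 1, 2 and 3, against 7.82, 10.49 and 7.89 in PBS 1, 2 and 3, the order of arrays that Cxcl12 and Ackr3 also had in part. Their log2 summed level was between 9.39 and 20.21 in MBELN and between 15.73 and 19.99 in PBS. The part of these cells in the levels of Cxcl12 and Ackr3 was not tested.

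Cxcr4, the signalling receptor of Cxcl12, did not follow its ligand. It read 6.11, 3.12 and 5.17 in MBELN 1, 2 and 3, against 9.35, 7.01 and 3.79 in PBS 1, 2 and 3. PBS 1 was the highest and PBS 3 lay below the olfactory receptor level, although these arrays resembled each other in Paneth cell markers. The difference was -1.91 ± 1.56 (log2, SE; limma, adjusted p = 0.588). T cell genes (12) had medians of 3.56, 3.05 and 3.23 in MBELN 1, 2 and 3, against 4.92, 3.83 and 4.01 in PBS 1, 2 and 3, with PBS 1 the highest there too.

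Ccr7, the receptor for lymph node homing, had the smallest range over the 6 arrays of the 21 genes, with 7.03, 8.04 and 6.94 in MBELN 1, 2 and 3, against 7.19, 7.65 and 7.14 in PBS 1, 2 and 3. Its difference was 0.01 with a 95% interval of -0.99 to 1.01 (limma, adjusted p = 0.996). Cxcr3, the receptor of activated T cells, lay between 4.64 and 4.79 in MBELN and between 5.01 and 5.37 in PBS, groups that did not overlap but differed by -0.48 ± 0.25 (log2, SE; limma, adjusted p = 0.403). Ccr2, the monocyte receptor, reached 6.04 in MBELN 3 and 5.28 in PBS 2. Ccr1, Ccr3, Ccr4, Ccr6, Ccr8, Ccr10, Cxcr1, Cxcr2, Cxcr6 and Xcr1 lay below the olfactory receptor level in all 6 arrays, so the receptors on neutrophils, eosinophils and several lymphocyte classes were not measured above background, and Ccr8 and Ccr10, whose groups did not overlap, carry no fold. Neutrophil genes (10) lay below the level in all PBS arrays, and 2 of them were above it in MBELN 2.

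Of 2 other ligands made by gut epithelium, neither passed the threshold. Ccl25, the thymic and small intestinal attractant of Ccr9-bearing T cells, read 5.28, 6.82 and 5.42 in MBELN 1, 2 and 3, against 6.90, 5.44 and 6.59 in PBS 1, 2 and 3. PBS 1 and PBS 3, which had small intestinal enterocyte medians of 17.12 and 17.11 against 5.28 in PBS 2, were the higher PBS arrays, and MBELN 2 stood between them with an enterocyte median of 3.47. The difference was -0.47 ± 0.61 (log2, SE; limma, adjusted p = 0.733), and Ccr9, its receptor, was above the level in PBS 1 alone, at 4.22. Ccl20, the attractant of Ccr6-bearing cells made by the epithelium over lymphoid follicles, read 3.52, 3.90 and 3.41 in MBELN 1, 2 and 3, against 4.99, 6.69 and 4.57 in PBS 1, 2 and 3. All MBELN values were below the olfactory receptor level and all PBS values above it, but the difference did not pass the threshold (limma, adjusted p = 0.197). It was -1.81 ± 0.60 (log2, SE) with all arrays and -1.17 without PBS 2, the highest array (adjusted p = 0.150).

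Ccl17 and Ccl22, attractants of Ccr4-bearing T cells and the neighbours of Cx3cl1, were highest in PBS 2, at 6.02 and 5.92. In MBELN 2, where Cx3cl1 was highest, they read 4.87 and 3.07. These 3 adjacent genes therefore had no common order of arrays.

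Of the interferon-induced Cxcl9, Cxcl10 and Cxcl11, Cxcl9 alone lay above background in any array. Cxcl9, induced by interferon gamma, read 5.82, 2.67 and 7.43 in MBELN 1, 2 and 3, against 6.61, 3.24 and 4.84 in PBS 1, 2 and 3. MBELN 2 and PBS 2 were below the olfactory receptor level and the groups overlapped, with a difference of 0.41 ± 1.45 (log2, SE; limma, adjusted p = 0.911). Cxcl10, Cxcl11 and the neutrophil attractants Cxcl1, Cxcl2, Cxcl3, Cxcl5 and Cxcl15 lay below the level in all 6 arrays, as did Cxcl17, Ccl1 and Xcl1. Ccl24, an eosinophil attractant, was above it in MBELN 1 and MBELN 3 alone, at 5.60 and 5.51. Ccl19 and Ccl26 stayed within 0.25 log2 units of the level or below it.

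Among the atypical receptors, Ccrl2, which binds chemerin without signalling, read 7.60, 3.41 and 6.85 in MBELN 1, 2 and 3, against 3.47, 3.86 and 3.47 in PBS 1, 2 and 3. MBELN 1 and MBELN 3 were high and the other 4 arrays were below the olfactory receptor level. The difference did not pass the threshold (limma, adjusted p = 0.350), and the groups overlapped, with MBELN 2 below every PBS value. The MBELN mean was at least 3.45-fold the PBS mean, a bound on the means alone that rests on MBELN 1 and MBELN 3. Without MBELN 2 the difference was 3.63 (limma, adjusted p = 0.00223).

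Ackr1, the Duffy receptor of venular endothelium and red cells, read 3.10, 7.47 and 3.61 in MBELN 1, 2 and 3, against 3.93, 3.71 and 3.05 in PBS 1, 2 and 3. It was above the olfactory receptor level in MBELN 2 alone, and its difference was 1.16 ± 1.21 (log2, SE; limma, adjusted p = 0.661). The annotation places Ackr1 over part of Cadm3, a cell adhesion gene of neurons, which read 3.25, 11.85 and 3.15 in MBELN 1, 2 and 3, against 3.63, 4.02 and 3.18 in PBS 1, 2 and 3. Without stated strand handling the value of Ackr1 in MBELN 2 is uncertain. Ackr2, which clears inflammatory CC chemokines, lay below the level in all 6 arrays, and Ackr4, which clears Ccl19, Ccl21 and Ccl25, exceeded it in PBS 1 alone, by 0.19.

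**Figure D4:**
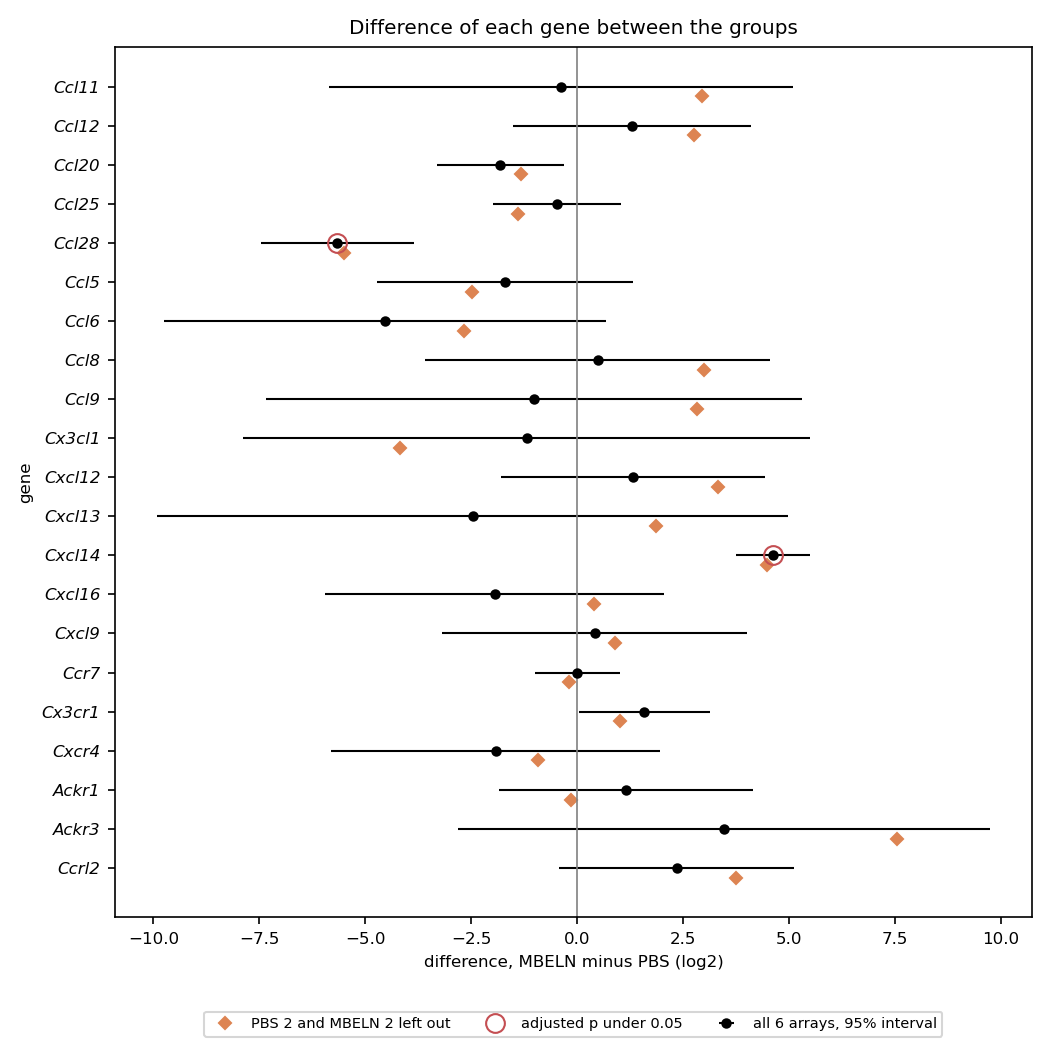
Difference between the groups, MBELN minus PBS (log2, horizontal axis), for the 21 genes. Circles with bars are the estimates and 95% intervals with all 6 arrays, rings mark an adjusted p under 0.05, and diamonds are the estimates without PBS 2 and MBELN 2. Cxcl14 and Ccl28 carry rings and keep their place, while the diamonds of Ccl9, Ccl11, Cxcl13, Cxcl16, Ccr7 and Ackr1 lie on the other side of 0 from their circles.

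Presence of ligand and receptor in the same array was counted for chosen pairs, which do not cover the family. Ccr7, the receptor for lymph node homing, and the lymphoid homing chemokines Ccl21a, Ccl21b and Ccl21c were not among them. Each of these genes lay above the olfactory receptor level in every array. Of 10 known pairs, Cxcl16 with Cxcr6, Ccl20 with Ccr6, Ccl28 with Ccr10 and Ccl11 with Ccr3 had 0 arrays in which ligand and receptor both lay above the olfactory receptor level. Cxcl13 with Cxcr5 and Ccl25 with Ccr9 met this in PBS 1 alone, where the receptors exceeded the level by 0.07 and 0.03 log2 units. The annotation overlaps Cxcr5 with Bcl9l and Ccr9 with the non-coding Gm17021. Cx3cl1 with Cx3cr1 met the criterion in MBELN 2 and MBELN 3, where Cx3cr1 exceeded the level by 2.26 and 0.35. Cxcl12 met it with Cxcr4, and with Ackr3, in the same 4 arrays, MBELN 1, MBELN 3, PBS 1 and PBS 2. Cxcl9 with Cxcr3 met it in MBELN 1, MBELN 3, PBS 1 and PBS 3. Ackr3 exceeded the level by 0.35 in PBS 1, and Cxcr3 by 0.24 and 0.21 in MBELN 1 and MBELN 3. Where the margin is this small, presence is uncertain.

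Over the 56 genes (genes do not replicate each other) Pearson's r was 0.936 between MBELN 1 and MBELN 3 and 0.900 between PBS 1 and PBS 3. MBELN 2 had r of 0.266 and 0.296 with MBELN 1 and MBELN 3, beside 0.663 and 0.662 over all 22206 probe sets. PBS 2 had r of 0.795 and 0.798 with MBELN 1 and MBELN 3, and 0.859 and 0.841 with PBS 1 and PBS 3. Over the 56 genes r was lower than over all probe sets in 14 of the 15 pairs of arrays. The gap was wider in every pair with MBELN 2 than in any other pair. It was narrowest among the MBELN 2 pairs with PBS 3 (0.473, beside 0.602). Among the other pairs it was widest for PBS 3 with MBELN 1 (0.649, beside 0.744).

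Without PBS 2 and MBELN 2, 11 of the 56 genes were higher and 6 lower in MBELN, beside 15.1% and 15.4% of all probe sets. The 11 were Cxcl14, Ackr3, Ccrl2, Cxcl12, Ccl2, Ccl7, Ccl8, Ccl9, Ccl12, Ccl24 and Ccr1. The 6 were Ccl28, Ccl6, Cx3cl1, Ccl20, Ccl25 and Ccl5. Ccr1 lay below the olfactory receptor level in all 6 arrays, so its call rests on values below background in both groups. Ccl2 exceeded the level in MBELN 1 alone, by 0.30 log2 units, so its call too rests on values near or below background. These arrays set MBELN 1 and MBELN 3, with heart markers, against PBS 1 and PBS 3, with Paneth cell and small intestinal markers.

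Of 13 measured relatives outside the naming rule, 12 missed the threshold, 1 rose and 0 fell, beside 1.42% of all probe sets that were higher and 3.76% that were lower. The gene that rose was Mif, a cytokine that also binds Cxcr2 and Cxcr4. It read 10.80, 10.10 and 10.30 in MBELN 1, 2 and 3, against 7.07, 8.53 and 6.95 in PBS 1, 2 and 3, a rise of 2.89 ± 0.52 (log2, SE; limma, adjusted p = 0.0384). Pf4, the platelet CXC chemokine, read 10.84, 3.69 and 10.80 in MBELN 1, 2 and 3, against 4.60, 7.82 and 3.36 in PBS 1, 2 and 3. Ccl27a read 7.03, 15.14 and 7.51 in MBELN 1, 2 and 3 and between 4.72 and 4.93 in PBS, but the annotation overlaps it with Il11ra1, so its identity is uncertain. Ccl21b and Ccl21c had identical values, between 4.39 and 13.48 in MBELN and between 9.22 and 14.18 in PBS, as near-identical copies of the lymphoid homing chemokine. Dpp4, a protease that trims chemokines, read 7.32, 4.79 and 7.04 in MBELN 1, 2 and 3, against 14.25, 7.35 and 14.82 in PBS 1, 2 and 3, and did not pass (adjusted p = 0.245).

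Chemokine receptors act through G proteins, phospholipases, kinases and small GTPases, some of them shared by many cell types and some restricted to blood cells. Of 55 measured signalling genes, 49 missed the threshold, 5 fell and 1 rose, beside 3.76% of all probe sets that were lower and 1.42% that were higher. The median difference over the list was -0.41, and Fgr, Was and Pik3r6 lay below the olfactory receptor level in all 6 arrays. Gng12, a G protein gamma subunit, fell by 6.12 ± 0.29 and Plcb3, a phospholipase C, fell by 7.22 ± 0.54 (log2, SE; limma, adjusted p = 0.00080 and 0.00257). Prkcd, a protein kinase C, fell by 6.75 ± 0.83 and Jak2, a cytokine receptor kinase, fell by 3.42 ± 0.50 (adjusted p = 0.0122 and 0.0211). Cdc42, a small GTPase of cell polarity, fell by 1.36 ± 0.26, and Plcb4, another phospholipase C, rose by 2.25 ± 0.41 (adjusted p = 0.0455 and 0.0415). Plcb4 read 9.27, 9.39 and 8.83 in MBELN 1, 2 and 3, against 6.46, 7.64 and 6.63 in PBS 1, 2 and 3. Gng12 read 9.25, 9.37 and 9.18 in MBELN 1, 2 and 3, against 15.70, 15.04 and 15.43 in PBS 1, 2 and 3. Beside these genes, 14 of 15 gut epithelial genes were lower in MBELN, and their part in the falls was not tested.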

How the data were processed

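The authors deposited a table of values, taken here as log2, and Transcriptome Analysis Console 4.0 is the tool that the submitters' processing notes list, with no role given. The scale is not stated and was inferred from a range of 1.77 to 19.93 and array medians of 4.38 to 4.55. For summarization, background correction and genome build, the method is not given in the sources used here. Of the assay, the labels' protocols name both an Affymetrix cRNA protocol and an Ion AmpliSeq assay, which is unresolved.

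After 6640 control probe sets were left out, limma 3.58.1 in R 4.3.3 was fitted to all 22206 transcript probe sets without covariates (two-sided, Benjamini-Hochberg adjustment, threshold 0.05, 4 residual and 1.66 prior degrees of freedom). On simulated data the fit found 0% of changes of 1 log2 unit, 2.4% of 2, 59.6% of 4 and 86.8% of 8. A gene that missed the threshold is therefore not shown to be unchanged. Symbols came from the platform annotation, and all 56 were found by Entrez identifier in RefSeq's GRCm38.p6 with 0 changed. Genes are given array by array where they passed the threshold or stood 2 log2 units above the olfactory receptor level in an array. "At least N-fold" sets the brighter group's mean against the dim group's mean of, per array, the higher of that level and its own value. The members and lists were chosen with earlier results of these data known. Alternatives covered the scaling between arrays, dim probe sets, the variance model, array weights, blocks and arrays left out. Figures used matplotlib 3.10.9.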

Additional observations from a re-analysis of the deposited data

How the results depend on the processing

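Cxcl14 was higher and Ccl28 lower in MBELN, and each kept its call, as the single gene of its direction, under quantile normalization, median centring, a trended robust variance model, the filter on dim probe sets (22 of the 56 genes tested) and the hybridisation control level as a block. Same-numbered arrays did not deviate together (r of -0.03, -0.07 and -0.06). As PBS 2 and MBELN 2 stood apart within their groups with different markers, this cannot show whether the numbers mark a pairing. With the number as a replicate block there was 1 higher and 1 lower gene (limma, adjusted p = 0.0295 for Cxcl14 and 0.0291 for Ccl28). No member had several probe sets, so that alternative changed nothing. With array weights, 7 genes were higher and 3 lower (12.9% and 13% of all probe sets). Within the arrays of higher hybridisation control level (MBELN 1 and 3 against PBS 2) the counts were 4 and 5 (9.59% and 9.21%), and 4 and 7 (16.8% and 15.8%) in the set of lower level (MBELN 2 against PBS 1 and 3), with 1 residual degree of freedom and the lone array assumed to vary like the others. Without PBS 2 and MBELN 2 they were 11 and 6 (15.1% and 15.4%). An adjusted p under 0.01 left 0 lower genes, and an unadjusted p under 0.05 gave 2 and 2 (7.21% and 10.6%). Leaving out each array in turn gave 1 to 5 higher and 0 to 2 lower genes, with 5 and 2 without MBELN 2 (9.51% and 7.32%) and 0 lower without PBS 1, PBS 3 or MBELN 3. Among differences that passed the threshold under the alternative, the sign turned for Ccl9 without PBS 2 and MBELN 2 (2.84), and within the arrays of lower level for Ccl8 (-2.17), Cx3cl1 (5.36) and Cxcl9 (-3.05). Signs also turned where no test passed, among them Ccl11, Cxcl13, Cxcl16, Ccr7 and Ackr1 without PBS 2 and MBELN 2. The cause was not tested. In 21 of the 56 genes no array lay above the olfactory receptor level, so their differences lie within background.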
